A study of Homo sapiens with 15 samples.

Results

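The comparison set the AKTmyr line against parental ARPE19, which make up 6 of the 15 libraries of the series, 3 per line. These 6 were picked by their column names in the deposited count table and paired by replicate number. The test was fitted to all 15 libraries, which share 1 estimate of the spread, so SEs and p-values also rest on the other lines. ARPE19 is an established human retinal pigment epithelial line, here untransfected and labelled as not transformed. AKTmyr is labelled as transformed, and was made from ARPE19 with 3 plasmids. The plasmids carry hTERT with p53DD (a dominant negative p53 fragment), cyclin D1 with CDK4R24C (a CDK4 that resists INK4 inhibitors), and myr-HA-Akt, an AKT held at the membrane by a myristoyl anchor. The effects of these 5 proteins cannot be told apart in this comparison, since AKTmyr carries all of them and ARPE19 none. The other lines of the series are T53D4, with the plasmids for hTERT, p53DD, cyclin D1 and CDK4R24C alone, and RasV12 and MekDD, with H-RasV12 or MEK-DD added to them. Each line is 1 derived line. Its 3 libraries of poly(A) RNA came from separately thawed vials passaged 2 times, so p-values cover the spread between vials, not between independently made lines.

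AKT is a serine/threonine kinase that growth factor receptors switch on through PI3K, whose lipid product brings AKT to the membrane. A myristoylated AKT sits at the membrane without that signal. Active AKT keeps FOXO transcription factors out of the nucleus and relieves the TSC complex's hold on mTORC1, a kinase complex linked to ATF4-driven amino acid genes, glycolysis, sterol synthesis and ribosome production. The RAS, RAF, MEK and ERK cascade is the other main branch below growth factor receptors, and its activity is commonly read from feedback genes such as the dual specificity phosphatases and sprouty genes. In this tissue the pigment epithelium supports the photoreceptors, and LHX2, OTX2, PAX6 and MITF are among its developmental regulators.

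Reads counted on genes ran from 24053883 to 46549693 in the AKTmyr libraries and from 24021180 to 39547723 in ARPE19. Levels are given as CPM (a gene's reads scaled to the library's effective size), changes are log2 fold changes of AKTmyr over ARPE19 with the standard error after ±, and triplets of values follow replicates 1, 2 and 3. Libraries with the same number deviated together from their line means, with correlations over 10648 genes of 0.79, 0.40 and 0.79 for the 3 pairs. The summed level of the DNA replication list shows what the pairs share: 1594, 2132 and 3540 CPM in AKTmyr and 1547, 2129 and 3081 CPM in ARPE19. Of 17 markers of endothelial, blood, fibroblast, nerve, melanocyte, muscle and keratinocyte cells in the table, 11 had under 30 reads in each line, among them PECAM1, CDH5, PTPRC, LYZ and SOX10. The summed level of the 17 was 151 to 194 CPM in AKTmyr and 177 to 205 CPM in ARPE19, nearly all of it from CD68 and KRT10, which other cells also express. COL1A1 and THY1, which also mark fibroblasts, are not among the 17 and are described below with other lists. The regulators OTX2, PAX6, MITF and SIX3 were present in both lines at 63.8 CPM or more on average. LHX2, the other regulator named above, was not kept in this way, with 149 reads in AKTmyr against 2403 in ARPE19. RPE65, the visual cycle enzyme, had no read in ARPE19 and 12 reads in AKTmyr.

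The construct sequences check the AKTmyr label. The sequence named MYR_FLAG_AKT in the table (the plasmid label names an HA tag instead) stood at 543, 774 and 1201 CPM in AKTmyr and at 98.2, 104 and 108 CPM in ARPE19, which carries no construct. Its lowest AKTmyr library was thus above 5 times the highest ARPE19 library, and the AKTmyr libraries differed among themselves by over 2 times. The CDK4R24C sequence stood at 935, 975 and 1107 CPM against 57.8, 72.8 and 81.6 CPM, and cyclin D1 at 732, 845 and 996 CPM against 156, 238 and 185 CPM. Murine p53DD had 1635, 2253 and 1954 reads against 1 read over all 3 ARPE19 libraries, and the TERT construct 16431, 30176 and 18941 reads against 8, 5 and 4. The constructs that AKTmyr should lack were at the parental level: HRASV12 at 18.6 ± 7.11 CPM (SD, n = 3) against 20.7 ± 6.66, and MEKDD at 4 reads over 3 libraries against 0.

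**Figure D1:**
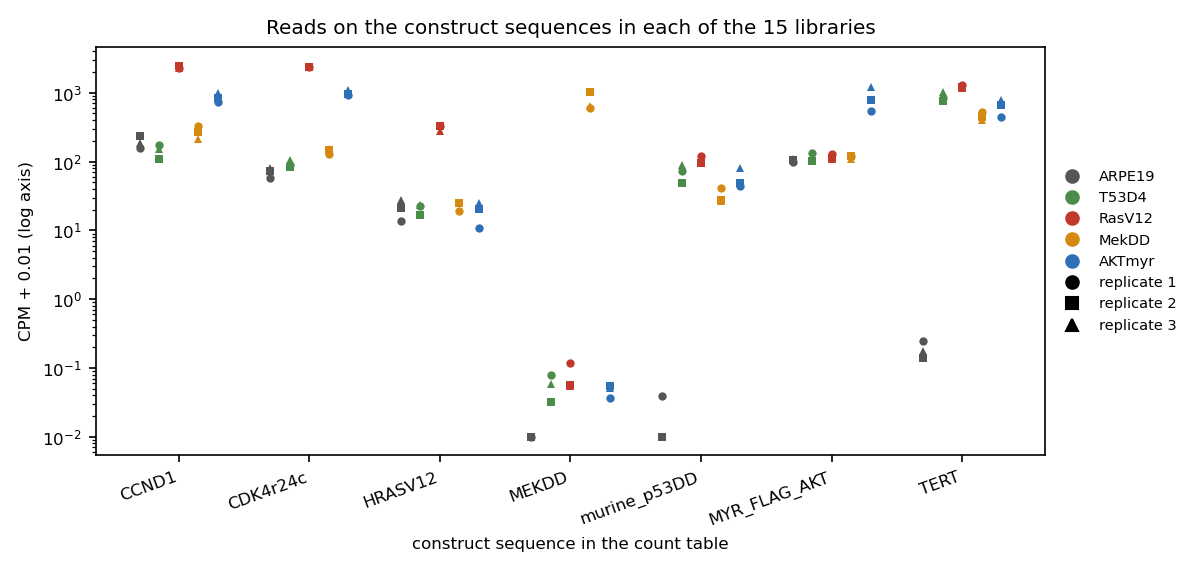
CPM on each of the 7 construct sequences in all 15 libraries, on a log axis after adding 0.01; colours are lines and symbols replicate numbers. The AKTmyr libraries sit between 543 and 1201 CPM on MYR_FLAG_AKT and all other libraries near 100 CPM, while on the CDK4R24C sequence the libraries labelled T53D4 and MekDD average 92.2 and 142 CPM, nearer to ARPE19 at 70.7 CPM than to AKTmyr at 1005 CPM.

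The cell's own genes for these proteins share reads with the constructs, so their values are uncertain. TERT stood at 524, 727 and 856 CPM in AKTmyr and 0.293, 0.282 and 0.125 CPM in ARPE19 (log2 fold change 11.45 ± 0.31, adjusted p = 8.21e-10), CDK4 at 729, 734 and 807 CPM in AKTmyr and 54.2, 66.6 and 78.9 CPM in ARPE19 (log2 fold change 3.52 ± 0.11, adjusted p = 2.77e-09) and AKT1 at 659, 859 and 1297 CPM in AKTmyr and 199, 194 and 221 CPM in ARPE19 (log2 fold change 2.19 ± 0.20, adjusted p = 1.95e-05). CCND1 was not called (log2 fold change 0.37 ± 0.21, adjusted p = 0.22), with 967, 1044 and 1206 CPM in AKTmyr and 700.1, 954 and 838 CPM in ARPE19. HRAS (log2 fold change -0.20 ± 0.18, adjusted p = 0.433) and MAP2K1 (log2 fold change -0.32 ± 0.16, adjusted p = 0.152) were not called either. Among the libraries labelled T53D4, the CDK4R24C and cyclin D1 sequences averaged 92.2 and 146 CPM, against 70.7 and 193 CPM in ARPE19. The same plasmid label goes with a CDK4R24C average of 1005 CPM in AKTmyr and 142 CPM in MekDD, whose libraries all lie above those of ARPE19.

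Of 13599 genes tested, 1960 (14.4%) were higher and 2067 (15.2%) lower in AKTmyr, which makes 29.6% called at an adjusted p under 0.05 in edgeR's quasi-likelihood test with the replicate number as a block. The median log2 fold change (AKTmyr minus ARPE19) over all genes was 0.00. At 2-fold or more, 594 genes (4.37%) were higher and 685 (5.04%) lower. The 3 AKTmyr and 3 ARPE19 libraries did not overlap in CPM for 4341 of the tested genes (31.9%). Of these, 2066 were higher and 2275 lower in AKTmyr, so a lack of overlap, where given below, is common among all genes. Without the block the counts were 1085 higher and 1205 lower. Leaving out ARPE19 replicate 2 gave 1302 higher, and leaving out replicate 2 of all lines gave 505 higher and 647 lower. Chromosome medians for genes of at least 5 CPM lay between -0.06 and 0.05 on chromosomes 1 to 22 and X. In bulk RNA, more cells with a transcript and more transcript per cell cannot be told apart. A list's count from the fit of all 15 libraries with the block is read below against these shares of 14.4% and 15.2%. List counts without the block or with libraries left out are to be read against the smaller totals of those fits. The fit of the 6 libraries alone with the block called more genes, 2640 higher and 2484 lower. List counts from that fit are to be read against those larger totals.

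**Figure D2:**
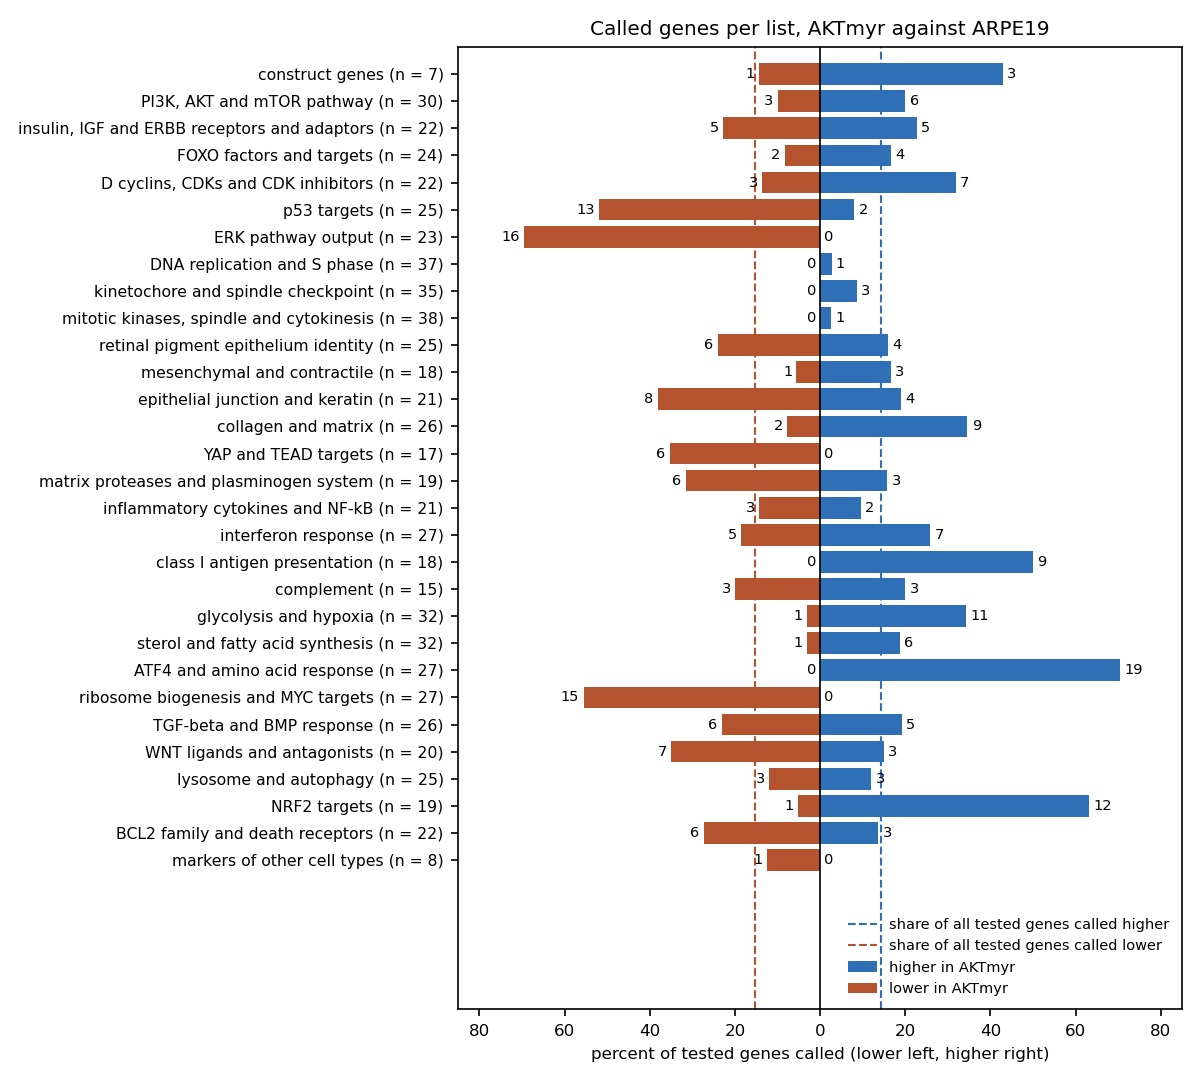
Percent of each list's tested genes that were called higher (right) or lower (left) in AKTmyr than in ARPE19, with gene counts beside the bars and dashed lines at the shares of all 13599 genes, 14.4% and 15.2%. ERK output, ribosome biogenesis and p53 target lists extend far to the left, and ATF4, NRF2 and class I lists far to the right.

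Of 30 tested genes of the PI3K, AKT and mTOR pathway itself, 6 were higher and 3 lower, near the background shares or under them, with a median of -0.04. PIK3R3 (chr1:46040140-46133036 on hg38), a regulatory subunit of PI3K, stood at 32.9, 33.7 and 34.8 CPM in AKTmyr and 3.54, 5.48 and 3.71 CPM in ARPE19 (log2 fold change 3.01 ± 0.20, adjusted p = 2.51e-06). All 3 AKTmyr libraries were within 2 CPM of each other and far above ARPE19. The regulatory subunit PIK3R1 rose too (118 against 67.7 CPM, log2 fold change 0.80, adjusted p = 0.00995), as did the catalytic subunit PIK3CB (67.5 against 44 CPM, log2 fold change 0.62, adjusted p = 0.00111), while the catalytic subunit PIK3CD fell (14.2 against 34 CPM, log2 fold change -1.23, adjusted p = 7.06e-04).

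The phosphatases PHLPP1 and INPP4B fell. PHLPP1, which removes the activating phosphate from AKT, stood at 34, 54.3 and 54.4 CPM in AKTmyr and 89.8, 129.7 and 134 CPM in ARPE19 (log2 fold change -1.32 ± 0.15, adjusted p = 7.34e-05), and its groups do not overlap. INPP4B, a phosphatase for a PI3K lipid product, also fell (59.2 against 120.5 CPM, log2 fold change -1.02, adjusted p = 0.00133). PIK3IP1, an inhibitor of PI3K and a FOXO target, was not called, with 30.1, 14.5 and 8.63 CPM in AKTmyr and 58, 22.4 and 13.6 CPM in ARPE19 (log2 fold change -0.77 ± 0.42, adjusted p = 0.19), and its groups overlap. RHEB, the GTPase that activates mTORC1, rose (199 against 145 CPM, log2 fold change 0.46, adjusted p = 0.0149). AKT2, MTOR, RPTOR, RICTOR, TSC1, TSC2, GSK3A and GSK3B were not called, with log2 fold changes between -0.25 and 0.16.

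Among 22 insulin, IGF and ERBB receptors, ligands and adaptors, 5 were higher and 5 lower (3 and 2 without the block), with a median of -0.03. The number lower was 3 without AKTmyr replicate 1, without AKTmyr replicate 2 or without ARPE19 replicate 1. The growth factor ligand IGF1 (chr12:102395874-102481744) had no read in the 3 ARPE19 libraries and 640 reads in AKTmyr, at 4.59, 3.17 and 13.6 CPM. Set against a floor of 3 reads over the ARPE19 libraries, IGF1 was at least 195-fold higher (adjusted p = 5.88e-05). IGFBP5, which binds IGFs outside the cell, stood at 1780.0, 269.8 and 309 CPM in AKTmyr and 368, 25.1 and 6.16 CPM in ARPE19 (log2 fold change 3.59 ± 0.81, adjusted p = 0.0059; adjusted p = 0.274 without the block). Its replicate 1 was the highest library in both lines, and AKTmyr was above ARPE19 within every pair. The receptors IGF1R, INSR, EGFR and ERBB2 were not called, with log2 fold changes from -0.29 to 0.03, and IRS2, an adaptor of the insulin receptor, stood at 128, 130.3 and 165 CPM in AKTmyr and 279, 159 and 168 CPM in ARPE19 (log2 fold change -0.47 ± 0.18, adjusted p = 0.0742). The call of IRS2 turned on 1 library: its adjusted p was 0.0213 without AKTmyr replicate 3.

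FOXO factors and targets, which AKT is known to restrain, showed no common direction among the called genes. Of 24 tested, 4 were higher and 2 lower, with a median of -0.15, and 1 higher and 2 lower without the block. Of all 24 log2 fold changes, 16 were below 0 and 8 above. The median differences within the 3 pairs were -0.12, -0.16 and -0.19. The number higher was 2 without AKTmyr replicate 1, ARPE19 replicate 2 or ARPE19 replicate 3. FOXO1 itself rose, at 29.2, 28.5 and 25.2 CPM in AKTmyr and 15.8, 15.3 and 11 CPM in ARPE19 (log2 fold change 0.98 ± 0.16, adjusted p = 9.96e-04), with no overlap between lines. FOXO3 was not called (log2 fold change -0.11 ± 0.08, adjusted p = 0.372). TXNIP, an inhibitor of glucose uptake, stood at 299.7, 144 and 125 CPM in AKTmyr and 136, 43.5 and 35.4 CPM in ARPE19 (log2 fold change 1.56 ± 0.26, adjusted p = 0.00108; adjusted p = 0.177 without the block), higher in AKTmyr within each pair though the groups overlap. CITED2, a transcriptional coregulator, fell from 493 ± 57.9 to 315 ± 56.5 CPM (SD, n = 3; log2 fold change -0.66 ± 0.16, adjusted p = 0.00738).

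The ATF4 and amino acid response list stood furthest above the background on the higher side. Of its 27 genes, 19 were higher and none lower, all 27 log2 fold changes were above 0, and the median was 1.07. ATF4 is a transcription factor translated under amino acid shortage and downstream of mTORC1, and its targets make and import amino acids. DDIT4 (chr10:72273924-72276036), an inhibitor of mTORC1, stood at 1094, 1026 and 939 CPM in AKTmyr and 204, 156 and 177 CPM in ARPE19 (log2 fold change 2.52 ± 0.27, adjusted p = 5.06e-05), and the lowest AKTmyr library was over 4 times the highest ARPE19 library. ALDH1L2, a mitochondrial folate enzyme, stood at 2.84, 2.99 and 2.92 CPM in AKTmyr and 0.41, 0.512 and 0.708 CPM in ARPE19 (log2 fold change 2.45 ± 0.24, adjusted p = 2.57e-05). The stress factor DDIT3, also called CHOP, stood at 19.9, 60.9 and 38.8 CPM in AKTmyr and 5.3, 10.4 and 10.2 CPM in ARPE19 (log2 fold change 2.14 ± 0.17, adjusted p = 8.37e-06), and the AKTmyr libraries spread over 3 times. ATF4 mRNA itself rose less, at 349, 602 and 513 CPM in AKTmyr and 299, 401 and 356 CPM in ARPE19 (log2 fold change 0.46 ± 0.16, adjusted p = 0.0477), and its groups overlap.

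Enzymes and carriers of amino acids were among the genes that rose. ASNS, which makes asparagine, rose by 1.51 ± 0.41 on the log2 scale, PSAT1 and PHGDH, which make serine, by 1.52 and 1.07, and PYCR1, which makes proline, by 0.78. The amino acid carriers SLC7A5, SLC3A2, SLC1A4 and SLC1A5 all rose by between 1.44 (SLC1A5) and 1.53 (SLC3A2), whereas the carriers SLC38A2 and SLC7A1 were not called (0.18 and 0.14). TRIB3, a pseudokinase that binds AKT, stood at 41, 229 and 112 CPM in AKTmyr and 23, 36.9 and 33.7 CPM in ARPE19 (log2 fold change 1.89 ± 0.39, adjusted p = 0.00374). Within pairs, the list's median difference (log2 of CPM + 0.1) was 1.09, 1.18 and 0.94, so all 3 pairs show the rise. The number called was 16 without the block, 12 without AKTmyr replicate 3 and 7 without replicate 2 of all lines, with none lower in any fit.

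ATF4 targets carry a C/EBP-ATF response element, written TGATGNAA, and NRF2 targets an antioxidant response element with the core TGACNNNGC. Both were searched on both strands in the 250 bases before the RefSeq start sites (GRCh38.p14). The C/EBP-ATF element was found in 3 of the 21 list members matched, ASNS, CHAC1 and ATF3, against 1.44% of promoters of tested genes and 3.19% of all 27305 promoters. ASNS and CHAC1 rose and ATF3 did not pass the test (0.24 on the log2 scale). The antioxidant core was found in 4 of 15 NRF2 list members matched, GCLM, ME1, TXNRD1 and PGD, against 11.9% and 11% of those promoters. With only 15 windows, whether 4 differs from those shares was not tested. GCLM and ME1 rose, TXNRD1 fell and PGD was not called. The 2 motifs share their first 3 letters and differ at the next, and a match is a description of sequence only. The windows below are shown because their genes rose, with the matched element in capitals, 5′ to 3′ on the gene's strand. ASNS lies at chr7:97872409-97872658, minus strand, with the element starting 68 bases before the start site, and CHAC1 at chr15:40953221-40953470, plus strand, with the element, there on the opposite strand, 209 bases before it. GCLM lies at chr1:93909431-93909680, minus strand, and ME1 at chr6:83431052-83431301, minus strand.
ASNS: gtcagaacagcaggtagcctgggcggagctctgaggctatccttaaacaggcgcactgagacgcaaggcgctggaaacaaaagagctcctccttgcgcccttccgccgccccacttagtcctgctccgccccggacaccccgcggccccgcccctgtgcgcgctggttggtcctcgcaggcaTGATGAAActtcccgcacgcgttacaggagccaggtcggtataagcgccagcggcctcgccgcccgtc
CHAC1: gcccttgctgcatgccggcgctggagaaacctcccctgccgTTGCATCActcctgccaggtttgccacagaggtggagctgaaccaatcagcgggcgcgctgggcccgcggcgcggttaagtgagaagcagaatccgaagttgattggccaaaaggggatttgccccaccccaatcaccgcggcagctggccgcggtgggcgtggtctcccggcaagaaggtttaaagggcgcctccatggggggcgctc
GCLM: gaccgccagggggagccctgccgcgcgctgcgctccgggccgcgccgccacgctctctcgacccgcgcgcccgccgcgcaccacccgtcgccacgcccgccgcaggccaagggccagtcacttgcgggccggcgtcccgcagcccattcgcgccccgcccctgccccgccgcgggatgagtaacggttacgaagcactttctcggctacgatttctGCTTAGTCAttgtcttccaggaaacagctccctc
ME1: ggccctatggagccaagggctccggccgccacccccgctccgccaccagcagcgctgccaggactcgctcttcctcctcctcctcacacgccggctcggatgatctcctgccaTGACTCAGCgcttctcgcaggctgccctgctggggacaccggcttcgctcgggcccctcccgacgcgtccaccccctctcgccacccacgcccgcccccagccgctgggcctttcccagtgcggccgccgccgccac

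CHAC1, which degrades glutathione, stood at 9.13, 15.7 and 18.8 CPM in AKTmyr and 3.25, 5.56 and 8.24 CPM in ARPE19 (log2 fold change 1.36 ± 0.41, adjusted p = 0.0251), and the ASNS values were 111, 180.2 and 173 CPM in AKTmyr and 26.4, 75.4 and 62.3 CPM in ARPE19 (log2 fold change 1.51 ± 0.41, adjusted p = 0.0153). For both genes the groups do not overlap. GCLM, the modifier subunit of the enzyme that makes glutathione's precursor, stood at 64.6, 66.5 and 74.7 CPM in AKTmyr and 30.6, 42 and 37.4 CPM in ARPE19 (log2 fold change 0.91 ± 0.16, adjusted p = 0.00115). ME1, the malic enzyme that supplies NADPH, stood at 64.2, 69 and 60.4 CPM in AKTmyr and 32.9, 45 and 39.1 CPM in ARPE19 (log2 fold change 0.73 ± 0.12, adjusted p = 0.00105).

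NRF2 targets, the antioxidant and detoxifying genes that GCLM and ME1 belong to, were mostly higher: of 19 tested, 12 rose and 1 fell, with a median of 0.81, and 11 rose and none fell without the block. AKR1B10, an aldo-keto reductase, stood at 1.76, 5.13 and 6.96 CPM in AKTmyr and 0.0586, 0.461 and 0.625 CPM in ARPE19 (log2 fold change 3.74 ± 0.40, adjusted p = 4.91e-05). HMOX1, which breaks down haem, stood at 64.3, 137 and 141 CPM in AKTmyr and 35.8, 32.5 and 20.4 CPM in ARPE19 (log2 fold change 1.93 ± 0.32, adjusted p = 9.9e-04), and NQO1, a quinone reductase, at 447, 780.2 and 744 CPM in AKTmyr and 146, 412 and 288 CPM in ARPE19 (log2 fold change 1.27 ± 0.25, adjusted p = 0.00243). The member that fell was TXNRD1, a thioredoxin reductase (1102 against 1735 CPM, log2 fold change -0.66, adjusted p = 0.0113), although its promoter window also holds the antioxidant core. AKR1C1, AKR1C2 and AKR1C3 are near-identical copies, so reads may be split among them.

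Genes of glycolysis and the hypoxia response were also higher more often than the background: 11 of 32 rose and 1 fell, 30 of 32 log2 fold changes were above 0 and the median was 0.44. Without the block 5 rose and none fell. VEGFA, the main angiogenic factor, stood at 925, 502 and 466 CPM in AKTmyr and 242, 111 and 102 CPM in ARPE19 (log2 fold change 2.11 ± 0.30, adjusted p = 3.3e-04), and EGLN3, a hydroxylase that marks HIF subunits, at 39.2, 22.6 and 19.2 CPM in AKTmyr and 9.72, 3.87 and 4.16 CPM in ARPE19 (log2 fold change 2.29 ± 0.26, adjusted p = 6.99e-05). In both genes replicate 1 was highest in both lines, and the groups do not overlap. The glucose transporter SLC2A1 and the hexokinase HK2 rose by 1.04 and 0.95 on the log2 scale (adjusted p = 1.74e-04 and adjusted p = 0.0212), while LDHA, PKM and ENO1 were not called, at 0.33, 0.22 and 0.20. The list's pairs differed in size, with median differences of 0.18, 0.37 and 0.69.

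Sterol and fatty acid synthesis genes did not move as a group: 6 of 32 were higher and 1 lower, with a median of 0.03 (4 higher and 0 lower without the block, and 4 lower without AKTmyr replicate 1). INSIG1, which holds back sterol synthesis, stood at 355, 112 and 151 CPM in AKTmyr and 95.4, 71.4 and 67.1 CPM in ARPE19 (log2 fold change 1.28 ± 0.20, adjusted p = 6.88e-04), and STARD4, a cholesterol carrier, rose by 0.94 (adjusted p = 0.00129). FADS2, a fatty acid desaturase, rose by 0.76 (adjusted p = 0.00548; adjusted p = 0.0619 without the block). All 3 had their highest value in AKTmyr replicate 1, and the list's median difference was 0.45 in pair 1 against -0.16 and -0.04 in pairs 2 and 3. Lysosome and autophagy genes gave 3 higher and 3 lower of 25 (1 each without the block), led by TFEB, a regulator of lysosomal genes, at 23.6, 22 and 16.5 CPM in AKTmyr and 9.9, 8.84 and 6.58 CPM in ARPE19 (log2 fold change 1.29 ± 0.19, adjusted p = 5.01e-04). In that list 1 gene was higher without AKTmyr replicate 2 or ARPE19 replicate 2, and 1 lower without AKTmyr replicate 1, AKTmyr replicate 3 or ARPE19 replicate 2.

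Ribosome biogenesis genes and MYC targets went the other way from the ATF4 list. Of 27 tested, 15 were lower and none higher, and all 27 log2 fold changes were below 0, with a median of -0.52. MYC, the transcription factor that drives ribosome production, stood at 87.4, 97.2 and 73.5 CPM in AKTmyr and 233, 173 and 154 CPM in ARPE19 (log2 fold change -1.11 ± 0.13, adjusted p = 7.59e-05), with every AKTmyr library below every ARPE19 library. RRS1 and NOP16, which help assemble the large ribosomal subunit, fell by 1.01 and 0.98 on the log2 scale (adjusted p = 0.00754 and 0.0035). The number lower was 11 without the block, 6 without AKTmyr replicate 1 or without ARPE19 replicate 3, 9 without replicate 3 of all lines and 2 without replicate 2 of all lines. The pair medians were -0.59, -0.40 and -0.52. The E-box CACGTG, the letters MYC is known to bind, was in none of the 21 promoter windows matched, against 8.71% of promoters of tested genes. With 21 windows, none cannot be told apart from that share. The windows also hold only the 250 bases before the start site, so sites at or after it were not searched.

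ERK pathway output genes were mostly lower in the AKTmyr line. Of 23 tested genes, 16 fell and none rose, with a median of -1.11, and 13 to 17 fell with none rising in all alternative fits but the one on 6 libraries with the block, which gave 18 lower and 2 higher. The phosphatase DUSP4, which switches off ERK in the nucleus, stood at 9.67, 12.5 and 18.9 CPM in AKTmyr and 112, 107 and 104 CPM in ARPE19 (log2 fold change -3.03 ± 0.25, adjusted p = 9.46e-06). SPRY4, an inhibitor of receptor signalling to RAS, stood at 0.54, 0.771 and 0.333 CPM in AKTmyr and 3.52, 3.89 and 1.87 CPM in ARPE19 (log2 fold change -2.45 ± 0.26, adjusted p = 4.6e-05). ETV4, an ETS factor that ERK induces, stood at 0.378, 0.837 and 1.58 CPM in AKTmyr and 2.46, 4.69 and 4.87 CPM in ARPE19 (log2 fold change -2.18 ± 0.44, adjusted p = 0.00317). For these 3 genes no AKTmyr library reached the lowest ARPE19 library.

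The fall covered both the feedback inhibitors and the transcription factors of the list. The cytoplasmic ERK phosphatase DUSP6 stood at 4, 3.15 and 4.33 CPM in AKTmyr and 7.5, 11 and 7.45 CPM in ARPE19 (log2 fold change -1.19 ± 0.20, adjusted p = 0.00116). FOSL1, an AP-1 subunit, stood at 64, 54.5 and 56.4 CPM in AKTmyr and 110.4, 109 and 108 CPM in ARPE19 (log2 fold change -0.92 ± 0.16, adjusted p = 0.00117), and its ARPE19 values span only 108 to 110 CPM. DUSP5, SPRY1, SPRY2, SPRED1, SPRED2 and SPRED3 fell by 2.10, 1.76, 1.24, 0.92, 0.81 and 1.17 on the log2 scale, and ETV1 and ETV5 by 1.65 and 1.73. The 7 genes not called were CCND1, whose reads the construct shares, IER3, EPHA4, PHLDA1, FOS, LIF and EGR1. FOS and EGR1 were at 1.24 and 6.85 CPM in AKTmyr and 1.95 and 12.7 CPM in ARPE19, and their groups overlap.

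**Figure D3:**
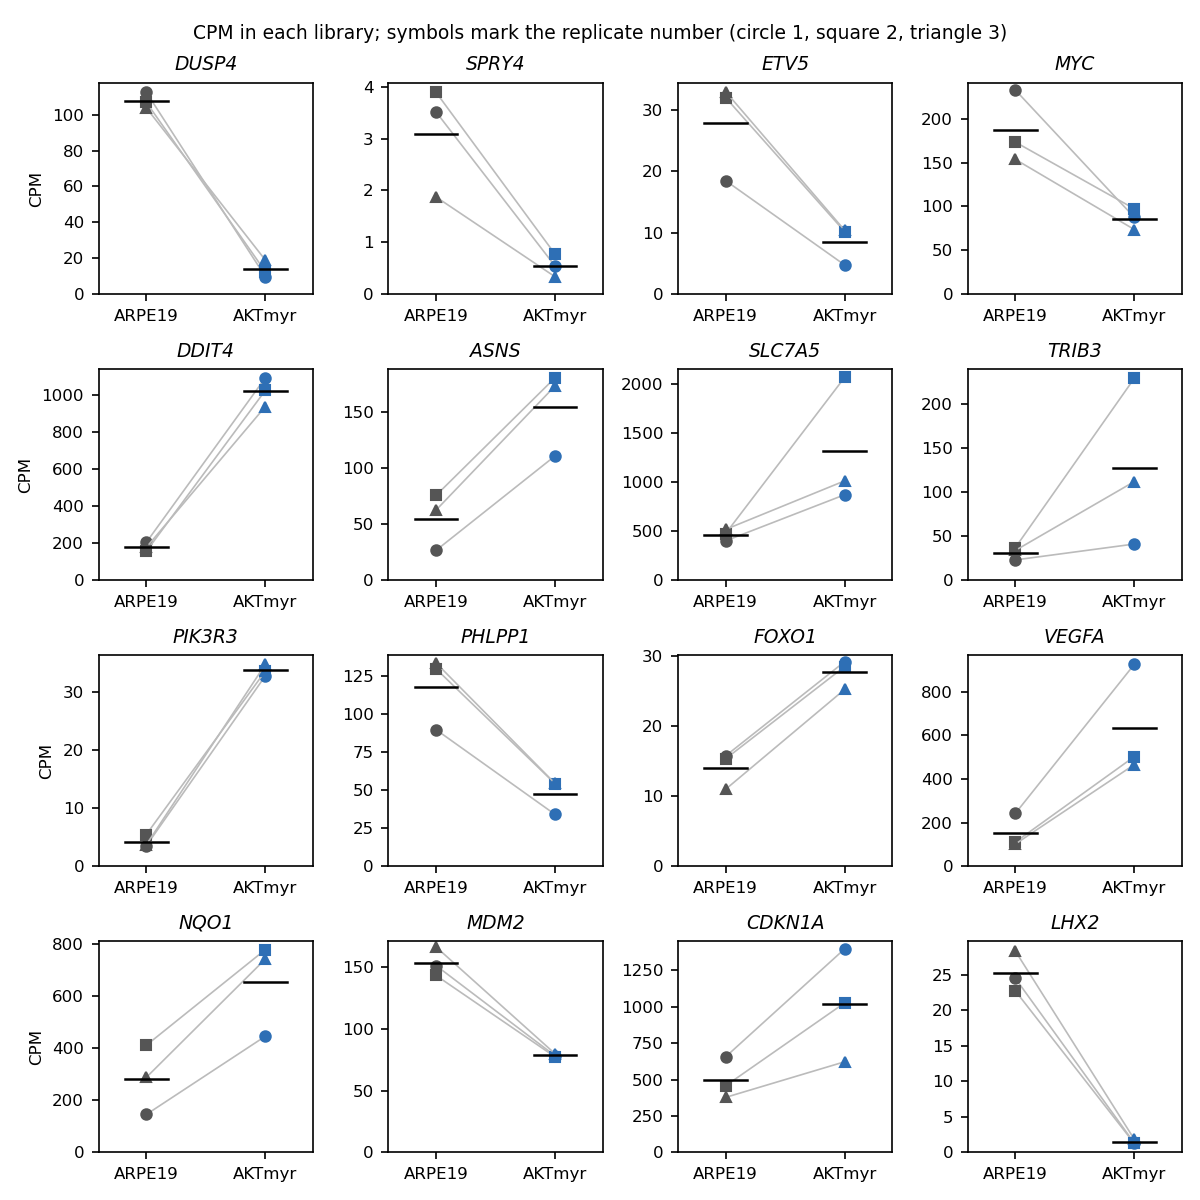
CPM of 16 genes in the 3 ARPE19 and 3 AKTmyr libraries; grey lines join libraries with the same replicate number and black bars are means, each axis starting at 0. DUSP4, SPRY4, ETV5, MYC, PHLPP1, MDM2 and LHX2 fall and the other 9 genes rise within all 3 pairs.

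Targets of p53 were lower more often than the background, in a line whose label includes p53DD. Of 25 tested, 13 fell and 2 rose, with a median of -0.42 (9 lower and 1 higher without the block, 8 lower without replicate 3 of all lines and 3 lower without replicate 2 of all lines). MDM2, the ubiquitin ligase that p53 induces, stood at 78.2, 77.4 and 79.9 CPM in AKTmyr and 151, 143 and 166 CPM in ARPE19 (log2 fold change -0.96 ± 0.17, adjusted p = 0.00137), and the AKTmyr values lay within 3 CPM of each other. PLK3, a stress kinase, stood at 7.13, 8.41 and 3.79 CPM in AKTmyr and 17.8, 17.1 and 12.2 CPM in ARPE19 (log2 fold change -1.30 ± 0.26, adjusted p = 0.00306), and BTG2, an antiproliferative gene, at 30.3, 23.2 and 14 CPM in AKTmyr and 60.3, 42.3 and 33.6 CPM in ARPE19 (log2 fold change -1.03 ± 0.25, adjusted p = 0.00793). CDKN1A, the p21 inhibitor of CDKs and the best known p53 target, went the opposite way, at 1398, 1027 and 622 CPM in AKTmyr and 656, 458 and 378 CPM in ARPE19 (log2 fold change 1.01 ± 0.23, adjusted p = 0.00678). AKTmyr was above ARPE19 in all 3 pairs for CDKN1A, although its lowest AKTmyr library was below the highest ARPE19 library. The other member that rose was POLK, a translesion polymerase (50.2 against 40.5 CPM, log2 fold change 0.32, adjusted p = 0.0371).

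In the D cyclin, CDK and CDK inhibitor list 7 of 22 rose and 3 fell, with a median of 0.25, and 4 rose and 2 fell without the block, as 4 rose without ARPE19 replicate 1. Besides CDK4, the INK4 inhibitors CDKN2C and CDKN2D rose. CDKN2C stood at 76.9, 57.9 and 90.9 CPM in AKTmyr and 29.5, 25.6 and 41.8 CPM in ARPE19 (log2 fold change 1.22 ± 0.14, adjusted p = 7.4e-05) and CDKN2D at 28.4, 19.1 and 31.2 CPM in AKTmyr and 7.88, 10.1 and 17 CPM in ARPE19 (log2 fold change 1.18 ± 0.20, adjusted p = 0.00124), both without overlap between lines. CDKN2A, which encodes p16, was not called, at 22.8, 15.4 and 15.4 CPM in AKTmyr and 22.6, 13.1 and 14.2 CPM in ARPE19 (log2 fold change 0.12 ± 0.12, adjusted p = 0.473). In the BCL2 family and death receptor list 3 of 22 rose and 6 fell (1 and 3 without the block), and 1 rose without AKTmyr replicate 1 or 2 or without ARPE19 replicate 2 or 3. The survival gene BCL2L1 stood at 178, 186 and 161 CPM in AKTmyr and 429.9, 444 and 369 CPM in ARPE19 (log2 fold change -1.24 ± 0.11, adjusted p = 1.76e-05), well apart in the lines, and BOK, a relative of BAX, fell by 0.78 (adjusted p = 0.00113).

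Genes of the cell division machinery were called less often than the background shares. Of 37 DNA replication genes 1 was higher (GINS1), of 35 kinetochore and spindle checkpoint genes 3 were higher (SPC24, DSN1 and CENPH), and of 38 mitotic kinase, spindle and cytokinesis genes 1 was higher (MYBL2), with none lower in any of the 3 lists. Their medians were 0.12, 0.13 and 0.06. The checkpoint kinases BUB1 and TTK, the scaffold KNL1 and BUB1B were not called, with log2 fold changes of 0.02, -0.01, 0.19 and -0.08, SEs of 0.24 to 0.26 and adjusted p of 0.61 or more. BUB1 stood at 116, 97.4 and 153 CPM in AKTmyr and 85.8, 107 and 169 CPM in ARPE19, so the spread within a line exceeded the difference. AURKA and AURKB, the mitotic Aurora kinases, were not called at -0.35 ± 0.27 and 0.29 ± 0.20.

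Without the replicate block no DNA replication or kinetochore gene was called, and in the fit of 6 libraries with the block 6 replication genes were higher and 2 lower, 9 kinetochore genes were higher and 2 lower, and 4 mitotic genes were higher and 3 lower. The number of kinetochore genes higher was 1 without AKTmyr replicate 3, ARPE19 replicate 1 or ARPE19 replicate 2, and 7 without ARPE19 replicate 3. GINS1, of the replicative helicase, stood at 39.5, 37.8 and 48.4 CPM in AKTmyr and 17.7, 20 and 35.9 CPM in ARPE19 (log2 fold change 0.80 ± 0.19, adjusted p = 0.00865; adjusted p = 0.055 without the block). SPC24, an NDC80 complex subunit, stood at 48.4, 56.9 and 91.3 CPM in AKTmyr and 28.6, 29.4 and 54.3 CPM in ARPE19 (log2 fold change 0.82 ± 0.18, adjusted p = 0.00543; adjusted p = 0.058 without the block). MYBL2, a factor of the mitotic gene programme, stood at 100.3, 163 and 182 CPM in AKTmyr and 73, 79.3 and 92.5 CPM in ARPE19 (log2 fold change 0.86 ± 0.21, adjusted p = 0.0083), with no overlap between lines.

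Retinal pigment epithelium genes gave 4 higher and 6 lower of 25 tested, with a median of 0.06. LHX2 (chr9:124001670-124033301), an eye field homeobox regulator, stood at 1.3, 1.25 and 1.83 CPM in AKTmyr and 24.5, 22.7 and 28.3 CPM in ARPE19 (log2 fold change -4.13 ± 0.24, adjusted p = 6.05e-07), and its lowest ARPE19 library was over 10 times its highest AKTmyr library. SERPINF1, the secreted factor PEDF typical of this tissue, stood at 1.62, 2.82 and 2.04 CPM in AKTmyr and 11.9, 11.8 and 6.79 CPM in ARPE19 (log2 fold change -2.22 ± 0.22, adjusted p = 3.42e-05). TYRP1, a melanin enzyme, went up, at 2.3, 5 and 9.25 CPM in AKTmyr and 0.791, 2.48 and 1.17 CPM in ARPE19 (log2 fold change 1.84 ± 0.45, adjusted p = 0.00885), within each pair though the groups overlap, and its adjusted p was 0.0897 without replicate 3 of all lines. OTX2 rose by 0.53 (adjusted p = 0.0233), while MITF, PAX6 and SIX3 were not called (0.10, 0.32 and -0.27).

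Epithelial junction and keratin genes were lower more often than the background, with 8 of 21 down, 4 up and a median of -0.33. The number up was 2 without the block, without AKTmyr replicate 1 or without ARPE19 replicate 2, and 1 without ARPE19 replicate 3. Among the genes up was E-cadherin, CDH1, by 1.49 on the log2 scale (adjusted p = 0.015). Its call was lost with some single libraries left out, as given below. CLDN1, a tight junction protein, stood at 29.8, 43.3 and 32.2 CPM in AKTmyr and 129.5, 89.3 and 68.9 CPM in ARPE19 (log2 fold change -1.39 ± 0.27, adjusted p = 0.00275). DSP, the desmosomal plaque protein, stood at 118, 163 and 101 CPM in AKTmyr and 351, 317 and 294 CPM in ARPE19 (log2 fold change -1.34 ± 0.15, adjusted p = 5.43e-05). Of 18 mesenchymal and contractile genes 3 rose and 1 fell, and 1 rose without the block or without AKTmyr replicate 1, ARPE19 replicate 2 or ARPE19 replicate 3. SNAI1, a repressor of epithelial genes, stood at 5.19, 3.13 and 2.38 CPM in AKTmyr and 0.879, 0.41 and 0.458 CPM in ARPE19 (log2 fold change 2.63 ± 0.54, adjusted p = 0.00363), and THY1, a surface marker of fibroblasts, at 0.054, 0.0881 and 0.0833 CPM in AKTmyr and 1.02, 1.69 and 0.583 CPM in ARPE19 (log2 fold change -3.85 ± 0.46, adjusted p = 9.92e-05), while VIM, CDH2 and ZEB1 were not called (-0.09, 0.09 and 0.13).

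Collagen and matrix genes rose more often than the background, at 9 of 26 with 2 lower and a median of 0.53 (6 and 1 without the block, 3 and 1 without replicate 2 of all lines). COL5A1, a fibril-forming collagen, stood at 755, 226 and 154 CPM in AKTmyr and 107, 24.7 and 23.7 CPM in ARPE19 (log2 fold change 2.92 ± 0.33, adjusted p = 7.15e-05). COL6A3, of a microfibril collagen, was low in both lines, at 1.11, 1.03 and 1.12 CPM in AKTmyr and 0.205, 0 and 0.167 CPM in ARPE19 (log2 fold change 3.29 ± 0.64, adjusted p = 0.00242). COL1A1, the main chain of type I collagen, stood at 335, 54.1 and 13 CPM in AKTmyr and 28.9, 2.51 and 1.67 CPM in ARPE19 (log2 fold change 3.72 ± 0.65, adjusted p = 0.00128; adjusted p = 0.145 without the block). Replicate 1 was the highest library for COL1A1 and COL5A1 in both lines. The list's summed level was 21370.0, 12920.0 and 8896 CPM in AKTmyr and 12670.0, 6712 and 6265 CPM in ARPE19, so replicate 1 was highest there too.

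Of 19 matrix protease and plasminogen genes 3 rose and 6 fell. MMP2, a gelatinase, stood at 469.9, 226 and 279 CPM in AKTmyr and 60.3, 44.8 and 33.1 CPM in ARPE19 (log2 fold change 2.79 ± 0.28, adjusted p = 3.3e-05), and the tissue plasminogen activator PLAT at 5.7, 4.76 and 6.33 CPM in AKTmyr and 33.7, 16.9 and 22.6 CPM in ARPE19 (log2 fold change -2.07 ± 0.40, adjusted p = 0.00253). YAP and TEAD targets were lower in 6 of 17 with none higher and a median of -0.37. ANKRD1 stood at 63.3, 115 and 41.1 CPM in AKTmyr and 281, 278 and 209 CPM in ARPE19 (log2 fold change -1.87 ± 0.40, adjusted p = 0.00442), and the coagulation starter F3 and the scaffold WWC1 fell by 1.05 and 1.19 (adjusted p = 6.17e-04 and adjusted p = 1.6e-04). The widely used YAP targets CCN1 and CCN2 were not called (-0.15 and -0.38).

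Inflammatory cytokine genes had a low median, -0.71, with 2 of 21 higher and 3 lower, and 1 lower without the block, AKTmyr replicate 1 or ARPE19 replicate 2. With the 6 libraries alone and the block, 4 of 19 were higher and 10 lower. CXCL12, a chemokine, had 183 reads in AKTmyr against 1 in ARPE19, a CPM ratio of 167 (95% exact binomial interval 29.6 to 6640.0, which covers counting error only; adjusted p = 9.22e-05). IL11 stood at 0.486, 0.044 and 0.125 CPM in AKTmyr and 7.09, 2.59 and 1.87 CPM in ARPE19 (log2 fold change -4.34 ± 0.74, adjusted p = 0.00113). CXCL8 and IL6 were at 17.1 and 1.14 CPM in AKTmyr and at 58.1 and 5.16 CPM in ARPE19, and neither was called.

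The class I antigen presentation list was higher in AKTmyr, with 9 of 18 up, none down, all 18 log2 fold changes above 0 and a median of 0.42. HLA-F, a class I molecule, stood at 49.4, 61.2 and 40.8 CPM in AKTmyr and 16.5, 15.8 and 18.7 CPM in ARPE19 (log2 fold change 1.59 ± 0.29, adjusted p = 0.00181). TAP1, which moves peptides into the endoplasmic reticulum, stood at 95.5, 93.5 and 52.5 CPM in AKTmyr and 41.9, 38.1 and 38.5 CPM in ARPE19 (log2 fold change 1.02 ± 0.23, adjusted p = 0.00588), and PSMB9, an immunoproteasome subunit, at 25.1, 24.6 and 12.8 CPM in AKTmyr and 9.55, 10 and 8.62 CPM in ARPE19 (log2 fold change 1.14 ± 0.22, adjusted p = 0.00222). The spans of TAP1 and PSMB9 overlap on opposite strands, so their reads may be shared. HLA-B and HLA-C rose by 0.92 and 0.81, and their reads may be split among near-identical copies. The number higher was 5 without the block, 5 without AKTmyr replicate 1, 4 without AKTmyr replicate 2 and 1 without replicate 2 of all lines.

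Interferon response genes were split, with 7 of 27 higher and 5 lower (5 and 0 without the block, and 3 or 2 lower without AKTmyr replicate 1 or ARPE19 replicate 2). IFI27, IFI44L and OAS1 rose by 3.01, 2.09 and 1.90 (adjusted p = 5.99e-04, adjusted p = 8.97e-04 and adjusted p = 3.81e-04), all from ARPE19 means under 1 CPM. ISG15 and MX1 were not called (0.23 and -0.20). In the complement list 3 of 15 rose and 3 fell (1 and 0 without the block, and 1 higher without ARPE19 replicate 3), and SERPING1, the C1 inhibitor, stood at 36.6, 5.9 and 7.04 CPM in AKTmyr and 143, 36.9 and 31.9 CPM in ARPE19 (log2 fold change -2.22 ± 0.24, adjusted p = 5.06e-05; adjusted p = 0.0878 without the block).

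In the BMP and WNT signalling lists, falls in some ligands and secreted antagonists stood beside rises in other members. Of 26 TGF-beta and BMP genes 5 rose and 6 fell, with a median of -0.04. Among those that rose was ID4, by 1.96 on the log2 scale, described below. BMP2 stood at 4.67, 4.51 and 3.71 CPM in AKTmyr and 15.4, 18.6 and 16.7 CPM in ARPE19 (log2 fold change -1.97 ± 0.18, adjusted p = 1.51e-05) and BMP4 at 23.3, 29.7 and 28.9 CPM in AKTmyr and 101, 105 and 108 CPM in ARPE19 (log2 fold change -1.96 ± 0.31, adjusted p = 7.72e-04), both far from overlapping. Of 20 WNT genes 3 rose and 7 fell (2 and 3 without the block, and 4 lower without ARPE19 replicate 2). SFRP1, a secreted WNT antagonist, stood at 26.2, 15.1 and 33 CPM in AKTmyr and 262, 143 and 138 CPM in ARPE19 (log2 fold change -2.91 ± 0.26, adjusted p = 1.51e-05). The antagonist DKK1 stood at 21.9, 32 and 59 CPM in AKTmyr and 60.5, 90 and 131 CPM in ARPE19 (log2 fold change -1.38 ± 0.19, adjusted p = 2.6e-04; adjusted p = 0.131 without the block), and LGR4, an R-spondin receptor, rose by 1.32 (adjusted p = 2.68e-04).

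The largest rises after TERT and IGF1 were from near absence. ACTC1 (chr15:34790230-34795549), cardiac actin, stood at 21.2, 12.4 and 14.4 CPM in AKTmyr and 0.0879, 0.102 and 0.125 CPM in ARPE19 (log2 fold change 7.26 ± 0.80, adjusted p = 6.28e-05). CDH18, a cadherin, stood at 13.4, 5.7 and 19.6 CPM in AKTmyr and 0.0293, 0.179 and 0.291 CPM in ARPE19 (log2 fold change 6.22 ± 0.46, adjusted p = 4.25e-06), and CLEC19A, a lectin domain gene, at 26.5, 7 and 4.04 CPM in AKTmyr and 0.234, 0.256 and 0.0833 CPM in ARPE19 (log2 fold change 5.79 ± 1.11, adjusted p = 0.00339). GSTA1, a glutathione transferase with near-identical relatives, stood at 74.2, 9.99 and 2.92 CPM in AKTmyr and 1.35, 0.231 and 0 CPM in ARPE19 (log2 fold change 5.73 ± 0.27, adjusted p = 8.84e-07), and its AKTmyr libraries spread over 25 times. DSC1, a desmosomal cadherin, SHISA9, KRT16, a stress keratin, and SEMA5B, a guidance factor, rose by 5.31, 4.18, 4.16 and 4.09. In none of these 8 genes did an ARPE19 library reach 2 CPM.

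The largest falls included a homeobox gene, a kinesin and a growth factor. RAX, a homeobox gene of the eye field like LHX2, had 3 reads over the AKTmyr libraries against 675 in ARPE19, a CPM ratio of 246 (95% exact binomial interval 83.9 to 1200.0) in favour of ARPE19. KIF1A, an axonal kinesin, stood at 0.162, 0.11 and 0.0833 CPM in AKTmyr and 25.9, 21.5 and 17 CPM in ARPE19 (log2 fold change -7.49 ± 0.25, adjusted p = 3.09e-09). FGF7, a growth factor for epithelium, stood at 0, 0.0881 and 0.0417 CPM in AKTmyr and 8.38, 5.81 and 6.25 CPM in ARPE19 (log2 fold change -7.17 ± 0.95, adjusted p = 2.21e-04), and CDH13, an anchored cadherin, at 0.054, 0.198 and 0.167 CPM in AKTmyr and 7, 6.79 and 5.46 CPM in ARPE19 (log2 fold change -5.49 ± 0.36, adjusted p = 1.64e-06). NPPB, the natriuretic peptide BNP, stood at 12.2, 6.85 and 5 CPM in AKTmyr and 733, 183 and 203 CPM in ARPE19 (log2 fold change -5.30 ± 0.29, adjusted p = 4.3e-07), with replicate 1 the highest library in both lines. B3GAT1, QPCT and DNAJA4 (a chaperone partner) fell by 4.94, 4.51 and 4.25.

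**Figure D4:**
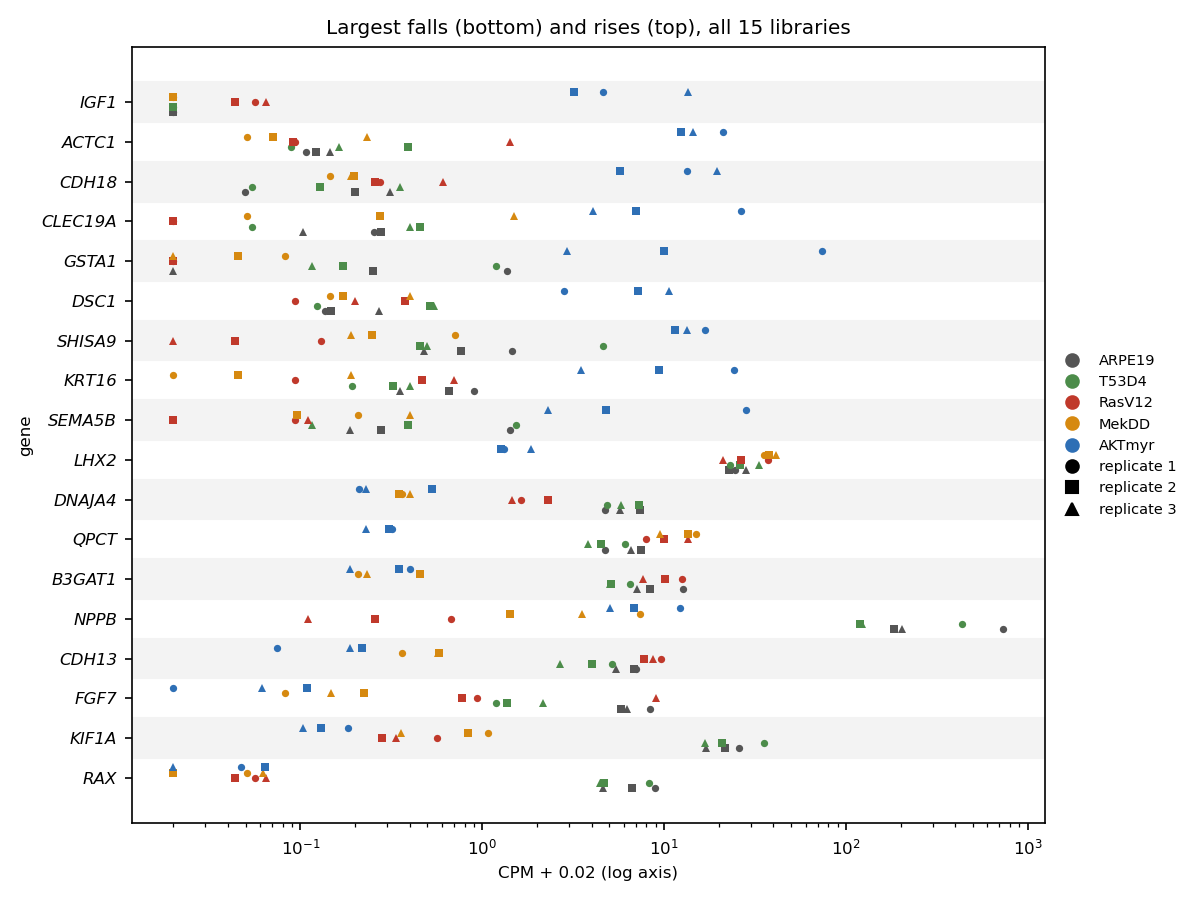
CPM, after adding 0.02 and on a log axis, of 9 of the largest falls and of the largest rises other than TERT, in all 15 libraries; colours are lines and symbols replicate numbers. AKTmyr libraries stand apart from all others for the genes that rose and for LHX2 and QPCT, whereas the libraries of MekDD also sit low for RAX, KIF1A, CDH13 and B3GAT1 and those of RasV12 for RAX and KIF1A.

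Beside the other 3 derived lines, some of these levels set AKTmyr apart. The comparisons share the AKTmyr libraries, so their values are given side by side and not as independent. Genes called the same way against each of the 4 other lines included ACTC1, CDH18, CLEC19A, GSTA1 and IGF1 on the higher side, and GAS7, LHX2, LYPD6B and MYRIP on the lower side. GAS7 averaged 3.79 CPM in AKTmyr, 58.8 in ARPE19, 54.9 in T53D4, 43.7 in RasV12 and 37.3 in MekDD. LHX2 averaged 1.46 CPM in AKTmyr and 25.2, 27.5, 28.3 and 38.2 CPM in those lines. LYPD6B fell by 3.51 against ARPE19 (adjusted p = 1.78e-04) and MYRIP, a melanosome transport adaptor, by 3.48 (adjusted p = 7.3e-06).

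List medians differed by the line AKTmyr was set against. The ERK output median was -1.11 against ARPE19, -0.88 against T53D4, -2.51 against RasV12 and -1.34 against MekDD. The ribosome list median was -0.52, -0.65, -0.89 and -0.67 in that order. The ATF4 median of 1.07 against ARPE19 compares with -0.16, 0.41 and 0.17 against the other lines, and the p53 target median of -0.42 with 0.19, -0.09 and 0.29. DNA replication genes had a median of 0.12 against ARPE19 and of -0.50, -0.47 and -0.52 against the other lines. The glycolysis and hypoxia median was 0.44 against ARPE19 and 1.00, 0.93 and 0.90 against the others. As background, 34.8% of all tested genes were called between AKTmyr and T53D4 (16.9% higher and 17.9% lower in AKTmyr), 52.7% against RasV12 (26.4% and 26.3%) and 40.3% against MekDD (20% and 20.3%).

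**Figure D5:**
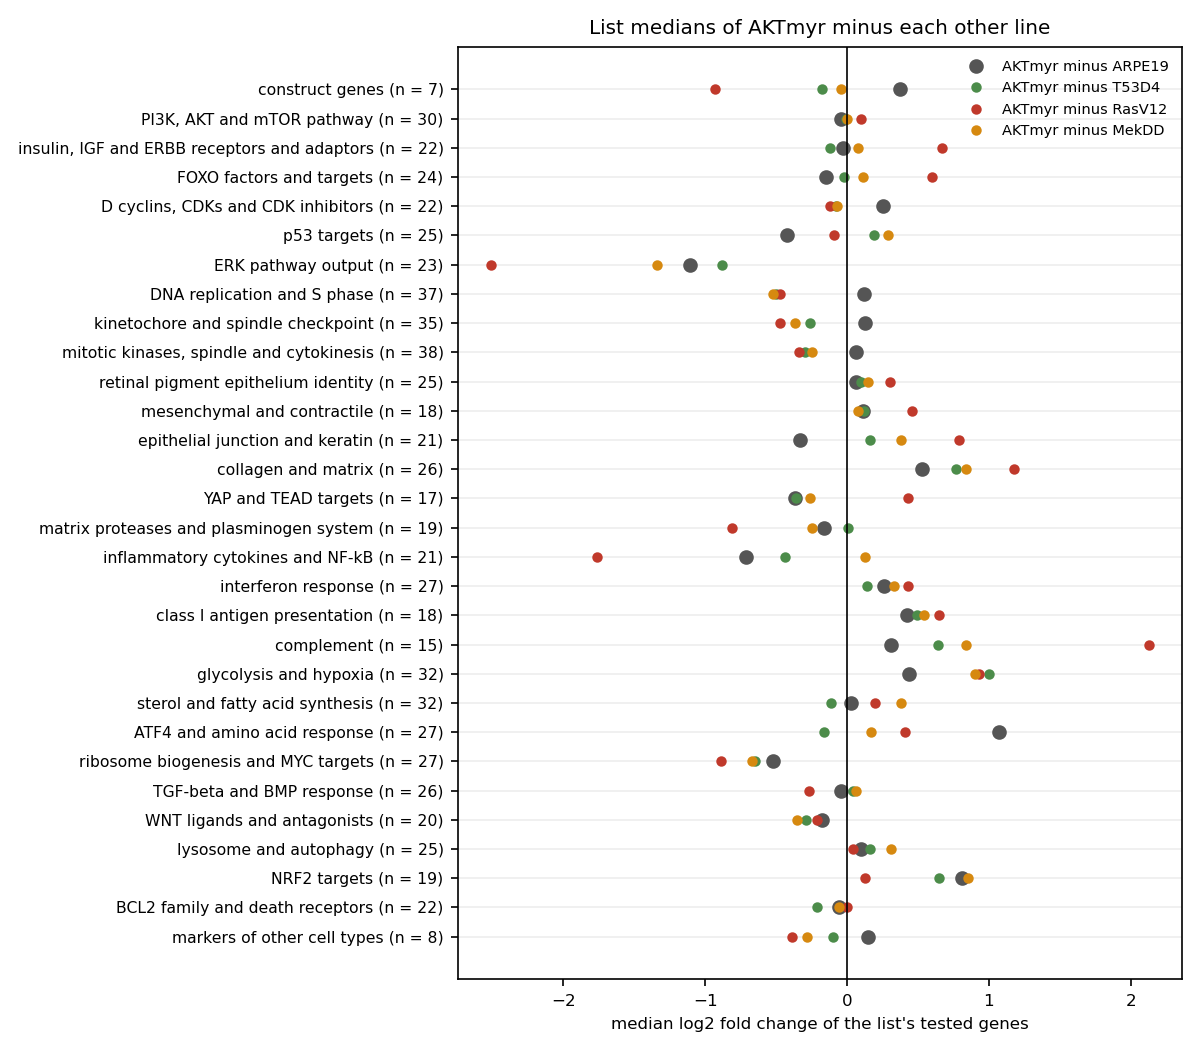
Median log2 fold change of each list's tested genes for AKTmyr minus each of the 4 other lines, all sharing the AKTmyr libraries. The ERK and ribosome lists lie below 0 against every line, and the ATF4 list lies at 1.07 against ARPE19 alone, with -0.16 to 0.41 against the other lines.

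Some called genes of these lists lose their call when 1 library is left out, so they are described here apart. SLC7A11, the cystine importer of both the ATF4 and NRF2 lists, stood at 49.4, 124 and 179 CPM in AKTmyr and 12.7, 45.6 and 56.5 CPM in ARPE19 (log2 fold change 1.62 ± 0.45, adjusted p = 0.0174), and its adjusted p was 0.0635 without AKTmyr replicate 2 and 0.0777 without AKTmyr replicate 3. ID4, a BMP-induced inhibitor of bHLH factors, stood at 100.1, 143 and 88.1 CPM in AKTmyr and 34.6, 23.4 and 28.7 CPM in ARPE19 (log2 fold change 1.96 ± 0.49, adjusted p = 0.00975), with 0.0517 without ARPE19 replicate 2. CCL2, a monocyte chemokine, fell by 1.31 (adjusted p = 0.0139), with adjusted p = 0.0695 without AKTmyr replicate 1 and 0.0995 without ARPE19 replicate 2. MAP2K1 was called without ARPE19 replicate 1 alone, at 0.0418.

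Further called genes lost their call in this way, several of them with any of 3 or more libraries left out. ANGPTL4, a lipase inhibitor, fell by 2.34 (adjusted p = 0.0467), with adjusted p = 0.186 without AKTmyr replicate 1, 0.131 without AKTmyr replicate 2, 0.0707 without ARPE19 replicate 1, 0.153 without ARPE19 replicate 2 and 0.0695 without ARPE19 replicate 3. The receptor ERBB4 fell by 1.58 (adjusted p = 0.0311), with adjusted p = 0.0576 without AKTmyr replicate 1, 0.0976 without AKTmyr replicate 2, 0.0851 without AKTmyr replicate 3 and 0.215 without ARPE19 replicate 1. BMF, a BH3-only death gene that rose by 1.53 (adjusted p = 0.0371), had adjusted p = 0.0793 without AKTmyr replicate 1, 0.0912 without AKTmyr replicate 2, 0.066 without AKTmyr replicate 3, 0.126 without ARPE19 replicate 2 and 0.118 without ARPE19 replicate 3. The kinetochore genes DSN1 and CENPH rose by 0.66 and 0.53 (adjusted p = 0.0259 and adjusted p = 0.0332); DSN1 had adjusted p = 0.111 without AKTmyr replicate 3, 0.113 without ARPE19 replicate 1 and 0.0586 without ARPE19 replicate 2, and CENPH had adjusted p = 0.157 without AKTmyr replicate 3, 0.149 without ARPE19 replicate 1 and 0.105 without ARPE19 replicate 2. E-cadherin, CDH1, rose by 1.49 from under 1 CPM (adjusted p = 0.015), with adjusted p = 0.124 without AKTmyr replicate 1, 0.0747 without ARPE19 replicate 1 and 0.0548 without ARPE19 replicate 3. S100A4 rose by 1.00 (adjusted p = 0.0144), with adjusted p = 0.0656 without AKTmyr replicate 1, 0.0586 without AKTmyr replicate 3, 0.0626 without ARPE19 replicate 2 and 0.0598 without ARPE19 replicate 3.

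The same holds for the other members of this kind. SERPINB2, a protease inhibitor, fell by 3.70 (adjusted p = 0.0141), with adjusted p = 0.0669 without AKTmyr replicate 2, 0.0597 without AKTmyr replicate 3 and 0.0895 without ARPE19 replicate 2. The complement genes C4A and CLU rose by 1.30 and 0.87 (adjusted p = 0.0189 and adjusted p = 0.0418); C4A had adjusted p = 0.114 without AKTmyr replicate 2, 0.0583 without ARPE19 replicate 2 and 0.0933 without ARPE19 replicate 3, and CLU had adjusted p = 0.218 without AKTmyr replicate 1, 0.108 without ARPE19 replicate 1 and 0.153 without ARPE19 replicate 3. The autophagy genes MAP1LC3B and GABARAPL1 went opposite ways, at 0.67 and -0.69 (adjusted p = 0.021 and adjusted p = 0.0407); MAP1LC3B had adjusted p = 0.11 without AKTmyr replicate 2 and 0.119 without ARPE19 replicate 2, and GABARAPL1 had adjusted p = 0.0561 without AKTmyr replicate 1, 0.0706 without AKTmyr replicate 2, 0.141 without AKTmyr replicate 3, 0.2 without ARPE19 replicate 1 and 0.0664 without ARPE19 replicate 2. KDR, an endothelial receptor and the called gene of the other cell type markers, was at 0.741 against 1.6 CPM (adjusted p = 0.0353), with adjusted p = 0.144 without AKTmyr replicate 2, 0.0907 without AKTmyr replicate 3, 0.152 without ARPE19 replicate 1 and 0.102 without ARPE19 replicate 2.

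The direction of all 16 genes in these 3 paragraphs, MAP2K1 aside, was kept with any 1 of the 6 libraries left out. Their log2 fold changes then ran from 1.21 to 1.96 for SLC7A11, 1.56 to 2.43 for ID4, -1.46 to -0.98 for CCL2, -2.90 to -1.86 for ANGPTL4, -1.94 to -0.86 for ERBB4 and 1.03 to 2.32 for BMF. The ranges were 0.46 to 0.84 for DSN1, 0.36 to 0.72 for CENPH, 1.19 to 1.97 for CDH1, 0.81 to 1.32 for S100A4 and -4.39 to -2.71 for SERPINB2. For the last genes they were 0.97 to 1.53 for C4A, 0.56 to 1.08 for CLU, 0.41 to 0.85 for MAP1LC3B, -0.85 to -0.42 for GABARAPL1 and -1.48 to -0.84 for KDR.

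Some genes described above lose their call in the same way. PIK3R1 had adjusted p = 0.0672 without AKTmyr replicate 1, and RHEB 0.06 without ARPE19 replicate 1 and 0.0568 without the block. For ATF4 mRNA the values were adjusted p = 0.137 without AKTmyr replicate 2, 0.203 without AKTmyr replicate 3, 0.149 without ARPE19 replicate 1, 0.151 without ARPE19 replicate 2 and 0.0534 without ARPE19 replicate 3, and 0.172 without the block. Among its targets ASNS had adjusted p = 0.0649 without AKTmyr replicate 3, CHAC1 0.0591 without AKTmyr replicate 2, 0.104 without AKTmyr replicate 3, 0.1 without ARPE19 replicate 1 and 0.0987 without ARPE19 replicate 2, and PSAT1 0.0849 without AKTmyr replicate 2, 0.1 without AKTmyr replicate 3, 0.0639 without ARPE19 replicate 1 and 0.0684 without ARPE19 replicate 2. For HK2 the values were adjusted p = 0.0864 without AKTmyr replicate 2, 0.0914 without AKTmyr replicate 3 and 0.0888 without ARPE19 replicate 1, and 0.0636 without the block. TXNRD1 stood at adjusted p = 0.0588 without AKTmyr replicate 1 and 0.134 without the block. POLK lost its call at adjusted p = 0.0739 without AKTmyr replicate 1, 0.133 without AKTmyr replicate 3, 0.142 without ARPE19 replicate 1 and 0.103 without ARPE19 replicate 2, and 0.171 without the block. OTX2 had adjusted p = 0.0845 without AKTmyr replicate 1, 0.08 without AKTmyr replicate 3, 0.0637 without ARPE19 replicate 2 and 0.11 without ARPE19 replicate 3, and 0.0696 without the block. Of the class I genes, HLA-B had adjusted p = 0.105 without AKTmyr replicate 1, 0.117 without AKTmyr replicate 2, 0.0553 without ARPE19 replicate 1, 0.0832 without ARPE19 replicate 2 and 0.0962 without ARPE19 replicate 3 and 0.0739 without the block, and HLA-C 0.0596 without AKTmyr replicate 1 and 0.0519 without AKTmyr replicate 2. SPRY1 kept its call without any 1 of the 6 libraries, with adjusted p = 0.0736 without the block. In the other direction IL6, SIX3 and TSC1 were called without ARPE19 replicate 3, at adjusted p = 0.0327, 0.0271 and 0.0459. Without the replicate block, none of ANGPTL4, BMF, C4A, CCL2, CDH1, CENPH, CLU, DSN1, ERBB4, GABARAPL1, KDR, MAP1LC3B, S100A4 and SERPINB2 was called, with adjusted p from 0.0515 (BMF) to 0.308 (S100A4).

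With the 6 libraries of AKTmyr and ARPE19 alone and the block kept, further lists moved by over 1.5 times in a count. That fit called more of all genes too, 2640 higher and 2484 lower, against 1960 and 2067 with all 15 libraries. In it FOXO genes were 5 higher and 6 lower, and pigment epithelium genes 7 and 6. Mesenchymal genes gave 4 higher and 4 lower, collagen and matrix genes 14 and 5, and matrix proteases 5 and 8. The complement list had 6 higher and 4 lower, the glycolysis and hypoxia list 19 and 1, and the TGF-beta and BMP list 8 and 8. WNT genes were 5 higher and 6 lower, and lysosome genes 5 and 3.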

How the data were processed

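Poly(A) RNA was measured by sequencing in 15 libraries, 3 for each of 5 lines, and raw counts of reads, as deposited by the authors, were tested. The submitters' processing notes name hg38 and, with no role or order, featureCounts 1.6.4, HISAT2 2.1.0, fastp 0.20.0, DESeq2 1.28.1, SAMtools 1.9 and deepTools 3.2.0. The library kit is directional per the labels' protocols, but whether counting used strand is not given in the sources used here. The span of 24 of the 119 genes named by rule overlaps another protein-coding gene in the annotation the authors deposited. All columns were matched to labels by name, with 0 left over. The deposited normalised and log-scale tables were not used.

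Of 15517 rows, 7 construct sequences were left out of the tests and the library sizes, and 13599 of 15510 genes passed filterByExpr by line (minimum count 10). The smallest row total was 10 reads, so scarcer genes could not be examined. edgeR 4.0.16 (R 4.3.3) was fitted to all 15 libraries with TMM factors, line and replicate number (glmQLFit, glmQLFTest), with Benjamini-Hochberg adjustment over the 13599 genes and a threshold of 0.05. Replicate numbers come from the labels, and each of the 3 AKTmyr and ARPE19 pairs correlated above 0.1, at 0.40 or more, so the block was kept. For RasV12 the correlation of replicate 3 was 0.00. SEs were derived from the quasi-likelihood F statistic. The method was tested on simulated counts with 200 changed genes, with 13 of 13195 unchanged genes called. The changed genes were drawn from those averaging at least 1 CPM. Replicate effects were made the same in all lines, which the 0.00 for RasV12 replicate 3 does not match.

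Genes were named by a rule: 24 genes in every case, the 10 largest rises and falls (at least 5 CPM, no overlap), up to 3 called members per list (at least 1 CPM) and 5 genes each way called against all 4 lines. Other list members are named for their role, after their values were seen, and a few genes the rule names are not reported here. The members and the 30 lists were chosen with earlier results of these data known, and counts of a list are not independent evidence of its direction. Alternatives were DESeq2 1.42.0, RLE factors, no filter, construct rows kept, no block, 6 libraries alone and leaving out libraries. Promoters came from RefSeq. HLA-B, HLA-C, HLA-F, C4A, GSTA1 and the AKR1C genes have near-identical copies among which reads may be split. Exact binomial intervals and the floor of 3 reads cover counting error only.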

Additional observations from a re-analysis of the deposited data

How the results depend on the processing

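For AKTmyr against ARPE19, the counts of 1960 higher and 2067 lower genes stayed within 1.5 times under DESeq2, RLE factors, no filter on low counts, kept construct rows and the 6 libraries alone with the block. Of the 4027 calls, 3969 were kept by DESeq2, 2290 without the replicate block and 1147 without replicate 2 of all lines, and in all these fits none was called in the opposite direction. Without the replicate block the counts were 1085 higher and 1205 lower against ARPE19, 1347 and 1391 against T53D4, and 1728 lower against MekDD. With 6 libraries and no replicate block they were 659 and 706 against ARPE19, 788 and 661 against T53D4, 2312 and 1966 against RasV12, and 1249 and 1100 against MekDD. With 6 libraries and the replicate block they were 2270 lower against RasV12, and 1569 higher and 1435 lower against MekDD. Leaving out libraries gave 505 to 1834 higher and 647 to 1864 lower against ARPE19, 814 to 2217 and 823 to 2289 against T53D4, 2007 to 3686 and 1717 to 3590 against RasV12, and 878 to 2814 and 851 to 2671 against MekDD. The lowest value came without replicate 2 of all lines in each case. Leaving out replicate 1 or replicate 3 of all lines removes as many libraries and gave 1642 and 1550 higher and 1418 and 1492 lower against ARPE19. Of single libraries, leaving out ARPE19 replicate 2 gave 1302 higher against ARPE19, and leaving out AKTmyr replicate 1 gave 1446 lower against T53D4 and 1774 lower against MekDD.

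Of the 119 genes named by rule, 106 were called and 54 of these kept direction and call under every one of the 16 alternatives that tested them. CXCL12, one of the 54, was not tested without replicate 2 of all lines. No called gene changed sign. Signs changed for checkpoint genes near 0: TTK was 0.01 with no filter, 0.04 with 6 libraries and the block, and -0.28 to 0.35 with libraries left out. In the same fits BUB1B ran from -0.40 to 0.18, BUB1 from -0.22 to 0.34 and KNL1 from -0.11 to 0.46. With 6 libraries and the block AURKA, AURKB, CCND1, MAP2K1 and PIK3IP1 were called (adjusted p = 0.0445, 0.0217, 0.0276, 0.0215 and 0.000715). The cause of these differences was not tested. On simulated counts the method called 86% of genes changed 2-fold and 99% of those changed 4-fold, so smaller changes are the ones most likely to be missed at this depth. These shares hold for genes averaging at least 1 CPM and for replicate effects shared by all lines. Recovery of scarcer genes was not tested.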
